A study of Mus musculus with 2 samples.

Results

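The adhesive and matricellular glycoproteins of the extracellular matrix were described in isolated mouse glomeruli, over the genes for fibronectin (Fn1), tenascin-C (Tnc), periostin (Postn), SPARC (Sparc), thrombospondin-2 (Thbs2), fibrillin-1 (Fbn1), elastin (Eln), fibulin-5 (Fbln5), vitronectin (Vtn) and matrix Gla protein (Mgp). The genes were taken by name, as every probe set whose platform annotation gave 1 gene symbol and that symbol was one of the 10. The rule found 18 probe sets of 9 genes, out of 34945 probe sets of 18193 genes with 1 symbol, and Fbn1 is not analysed here. Both groups were homozygous for a floxed gene of the natriuretic peptide receptor GC-A (GC-A fl/fl) and for a floxed gene of the stress kinase p38 (p38 fl/fl). The first group, called the double knockout, also carried the transgene Nephrin-Cre (Cre/+), in which a nephrin promoter drives Cre in podocytes, the filtering epithelial cells of the glomerulus, so that deletion is aimed at this cell type alone. The other, called the floxed control, was Nephrin-Cre (+/+), which was read as no Cre allele. All mice were male C57BL/6J, 2 months old, and both groups had been given 6% NaCl chow together with aldosterone, 0.2 µg/kg per minute by minipump, for 3 weeks. Each genotype was measured on 1 array and the number of mice behind it is not in the labels, so no value has a replicate check and no test between the genotypes could be made.

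These proteins fill the space between cells. Fibronectin and vitronectin are adhesive proteins that cells hold through integrins. Tenascin-C, periostin, thrombospondin-2 and SPARC are called matricellular, because they alter how cells hold to the matrix more than they bear load, and several of them are scarce in resting adult tissue and abundant in injured tissue. Elastin, the fibrillins and the fibulins build elastic fibres and microfibrils. Elastic fibres of the kidney are known mainly from arteries and arterioles, and matrix Gla protein restrains calcification of vessel walls. In the glomerulus the mesangium, the tissue between the capillaries, is a known site of fibronectin.

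Promoter sequences are shown for Tnc, Postn and Thbs2, which differed by at least 2-fold (called past 2-fold) and were higher in the double knockout, and for Fbln5, which read lower. Fn1 was also past 2-fold higher, but the promoter sequences used here held no entry for it. Each is the 250 bases upstream of an annotated start on the gene's own strand, from RefSeq on GRCm38.p6, and both starts of Postn and of Fbln5 are shown since their windows do not overlap. The window of another Tnc start overlaps the one shown and is not printed. Capitals mark matches on either strand to 5 motifs that were searched. The core of Smad binding elements was searched as CAGAC. Sites for the transcription factor AP-1 were searched as TGANTCA. The cAMP response element was searched as TGACGTCA. Sites for the TEAD factors were searched as GGAATG. The TATA box of core promoters was searched as TATAAA.
Tnc, chr4:64047016-64047265, minus strand: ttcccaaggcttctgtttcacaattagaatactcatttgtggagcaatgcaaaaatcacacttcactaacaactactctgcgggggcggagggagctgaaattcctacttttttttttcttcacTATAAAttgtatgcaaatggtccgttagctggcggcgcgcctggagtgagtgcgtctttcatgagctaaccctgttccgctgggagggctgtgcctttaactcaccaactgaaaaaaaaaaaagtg
Postn upstream start, chr3:54359017-54359266, plus strand: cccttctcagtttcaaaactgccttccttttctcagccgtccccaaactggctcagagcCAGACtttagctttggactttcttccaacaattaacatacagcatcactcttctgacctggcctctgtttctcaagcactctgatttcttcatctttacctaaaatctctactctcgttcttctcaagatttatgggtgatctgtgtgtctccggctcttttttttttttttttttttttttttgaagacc
Postn downstream start, chr3:54360857-54361106, plus strand: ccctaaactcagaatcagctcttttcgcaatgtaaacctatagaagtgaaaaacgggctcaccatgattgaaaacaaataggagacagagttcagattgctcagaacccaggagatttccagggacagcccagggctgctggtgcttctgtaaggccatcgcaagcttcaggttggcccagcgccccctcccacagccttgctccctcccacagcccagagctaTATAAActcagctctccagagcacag
Thbs2, chr17:14694263-14694512, minus strand: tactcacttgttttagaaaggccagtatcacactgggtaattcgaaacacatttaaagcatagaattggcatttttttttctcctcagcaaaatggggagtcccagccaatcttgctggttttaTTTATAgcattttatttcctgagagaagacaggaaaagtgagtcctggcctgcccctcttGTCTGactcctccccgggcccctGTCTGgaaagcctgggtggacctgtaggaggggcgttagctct
Fbln5 downstream start, chr12:101818485-101818734, minus strand: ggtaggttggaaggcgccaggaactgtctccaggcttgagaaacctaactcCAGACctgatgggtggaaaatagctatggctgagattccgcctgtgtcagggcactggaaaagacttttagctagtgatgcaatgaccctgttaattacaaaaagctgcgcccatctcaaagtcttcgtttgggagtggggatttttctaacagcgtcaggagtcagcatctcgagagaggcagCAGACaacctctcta
Fbln5 upstream start, chr12:101819120-101819369, minus strand: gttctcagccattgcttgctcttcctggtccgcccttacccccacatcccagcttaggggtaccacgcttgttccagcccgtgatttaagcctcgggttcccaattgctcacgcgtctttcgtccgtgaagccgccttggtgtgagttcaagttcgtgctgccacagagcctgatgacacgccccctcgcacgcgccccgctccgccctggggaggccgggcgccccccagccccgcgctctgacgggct

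TATAAA was found in the Tnc window at position -126 from the start, in the window of the downstream Postn start at -26, and on the opposite strand of the Thbs2 window at -126, against 12.4% of all 32851 annotated mouse promoters of this length that hold it on either strand. CAGAC or its reverse complement was found once in the window of the upstream Postn start and at 2 places each in the windows of Thbs2 and of the downstream Fbln5 start, and 42.2% of all promoters hold it. It was not in the printed Tnc window, and the window of the other Tnc start held it on the opposite strand at -70 and the same TATAAA at -205. The window of the upstream Fbln5 start held none of the 5 motifs. TGANTCA, found in 6.75% of all promoters, TGACGTCA, found in 1.55%, and GGAATG, found in 12.6%, had no match in the 6 printed windows. Only the exact letters given were searched, so close variants of a motif, in the TATA box too, were not marked or counted. A match is a string of letters and says nothing on whether a factor binds there.

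The arrays gave 1 signal per probe set, an intensity on a linear scale that MAS5 had scaled to the same trimmed mean on both arrays. Signals below a floor of 52.7, the 40th percentile averaged over the arrays, were taken as not measured and raised to the floor before log2 differences, which are double knockout minus floxed control. The GC-A gene, Npr1, read 102 in double knockout glomeruli and 167 in floxed control glomeruli, a log2 difference of -0.71, and Mapk14, which encodes p38α (taken here as the floxed p38, since the labels name no isoform), read 2607 in double knockout glomeruli and 2628 in floxed control glomeruli. Where these probe sets lie relative to the floxed exons is not given in the sources used here, so they do not check the labels. All 7 podocyte markers with a probe set were measured on both arrays, with a summed signal of 72142 in double knockout glomeruli and 52949 in floxed control glomeruli. All tubule markers listed were measured on both arrays too. The summed signal of the 10 proximal tubule markers was 70623 in double knockout glomeruli and 124668 in floxed control glomeruli, and that of the 10 distal nephron markers was 40639 in double knockout glomeruli and 57107 in floxed control glomeruli.

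Of the 9 genes with a probe set, 4 were past 2-fold higher in the double knockout and none was past 2-fold lower, while 3.53% of 13290 measured genes were past 2-fold upward and 2.87% past 2-fold downward. Over all measured genes 56.1% were above 0. The 4 were Fn1, Tnc, Postn and Thbs2. The counts were 2 higher and 1 lower when all differences were recentred on glomerular cell markers, and 1 higher when each gene was read from its probe set of median difference (the lower of a pair). Recentring put 81 of the 13290 measured genes past 2-fold higher and 1967 past 2-fold lower. By the probe set of median difference 2.60% of measured genes were past 2-fold higher. Sparc, Eln and Mgp read less than 2-fold higher, Fbln5 read lower, and Vtn was below the floor on both arrays. Of these genes 8 reached the floor on at least 1 array, 7 of them on both, and Postn reached it in the double knockout alone. The median log2 difference of the 8 was 0.98 (0.76 over the 7 measured on both arrays), beside 0.07 over all measured genes. In RNA of whole glomeruli, fewer cells of a type and less RNA per cell cannot be told apart.

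**Figure D1:**
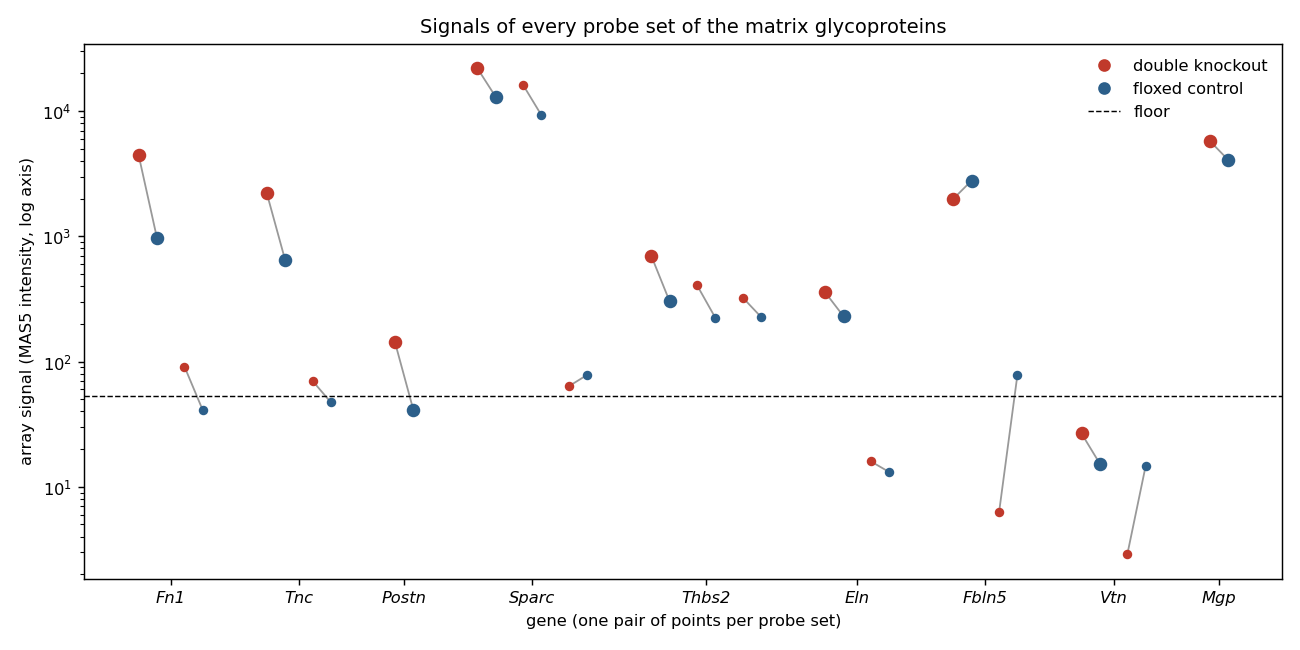
Array signal (MAS5 intensity, log axis) of the 18 probe sets of 9 matrix glycoprotein genes, with the double knockout as the left point and the floxed control as the right point of each pair, 1 array each. Larger points mark the probe set that represents the gene, and the dashed line is the floor of 52.7. The lines of Fn1 and Tnc are steep, that of Fbln5 runs the other way, and both Vtn pairs lie below the floor.

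Fibronectin, the adhesive glycoprotein that integrins assemble into fibrils, showed the largest difference among the 7 genes measured on both arrays, read from the brightest probe sets. By the probe set of median difference Fn1 was at 0.79 or more on the log2 scale, beside 0.86 for Thbs2. Fn1 read 4428 in double knockout glomeruli and 968 in floxed control glomeruli, which is 4.57-fold higher, or 2.19 on the log2 scale. It was the 18th highest of the 13290 measured genes, and its difference exceeded those of all 500 genes nearest to it in mean signal, whose 5th and 95th percentiles were -1.01 and 0.76. A second Fn1 probe set was dim, with 91.2 in double knockout glomeruli and 40.9 in floxed control glomeruli, and the floxed control was below the floor, so this set gave at least 1.73-fold. Both sets were higher in the double knockout and differed in size.

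Vitronectin is an adhesive protein of plasma that the liver supplies. Its brighter probe set read 26.6 in double knockout glomeruli and 15.3 in floxed control glomeruli, and the other read 2.88 in double knockout glomeruli and 14.6 in floxed control glomeruli. Both sets were below the floor on both arrays and pointed in opposite directions, so no fold is given for Vtn.

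Tenascin-C is a large multi-armed glycoprotein that binds fibronectin and weakens cell attachment to it. Tnc read 2203 in double knockout glomeruli and 647 in floxed control glomeruli, 3.41-fold higher (1.77 on the log2 scale) and the 47th highest of all measured genes. It stood at percentile 99.8 among the 500 genes nearest in mean signal. The other Tnc probe set read 70.0 in double knockout glomeruli and 47.2 in floxed control glomeruli, at least 1.33-fold higher, since the floxed control was below the floor. As with Fn1, the dim set pointed the same way with a smaller bound.

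Periostin is a secreted protein that binds collagen and tenascin-C and is known from healing and fibrotic tissue. Its only probe set read 143 in double knockout glomeruli and 41.3 in floxed control glomeruli, where it was below the floor. Postn was therefore at least 2.71-fold higher (1.44 or more on the log2 scale), and it was counted as measured only through the array on which it was high.

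Thrombospondin-2 is a trimeric glycoprotein that limits vessel growth and binds the protease MMP2. The Thbs2 probe set that represents the gene read 699 in double knockout glomeruli and 303 in floxed control glomeruli, 2.31-fold higher (1.21 on the log2 scale). A second read 407 in double knockout glomeruli and 224 in floxed control glomeruli (1.82-fold), and the remaining set, of a kind open to cross-hybridisation, read 324 in double knockout glomeruli and 227 in floxed control glomeruli (1.43-fold). All 3 sets were measured on both arrays and read higher in the double knockout, and only the brightest was past 2-fold.

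SPARC binds collagen and calcium and belongs to the matrix that glomerular cells make in health. Sparc read 21986 in double knockout glomeruli and 13003 in floxed control glomeruli, 1.69-fold higher (0.76 on the log2 scale). A second bright set gave nearly the same, with 16162 in double knockout glomeruli and 9274 in floxed control glomeruli (1.74-fold). The remaining Sparc set, near the floor, went the other way, with 63.6 in double knockout glomeruli and 78.4 in floxed control glomeruli (-0.30 on the log2 scale). Over all measured genes Sparc stood at percentile 91.6, but at 98.8 among the 500 genes nearest in signal, whose median difference was -0.29. Taking out the trend of difference on signal put Sparc past 2-fold, at 1.12 on the log2 scale, and quantile normalization at 1.05. These steps moved the podocyte marker median from 0.57 to 0.75 and 0.70 too. The glomerular endothelial median went from 0.55 to 0.71 and 0.67, and the mesangial and mural median from 0.72 to 0.70 and 0.67.

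**Figure D2:**
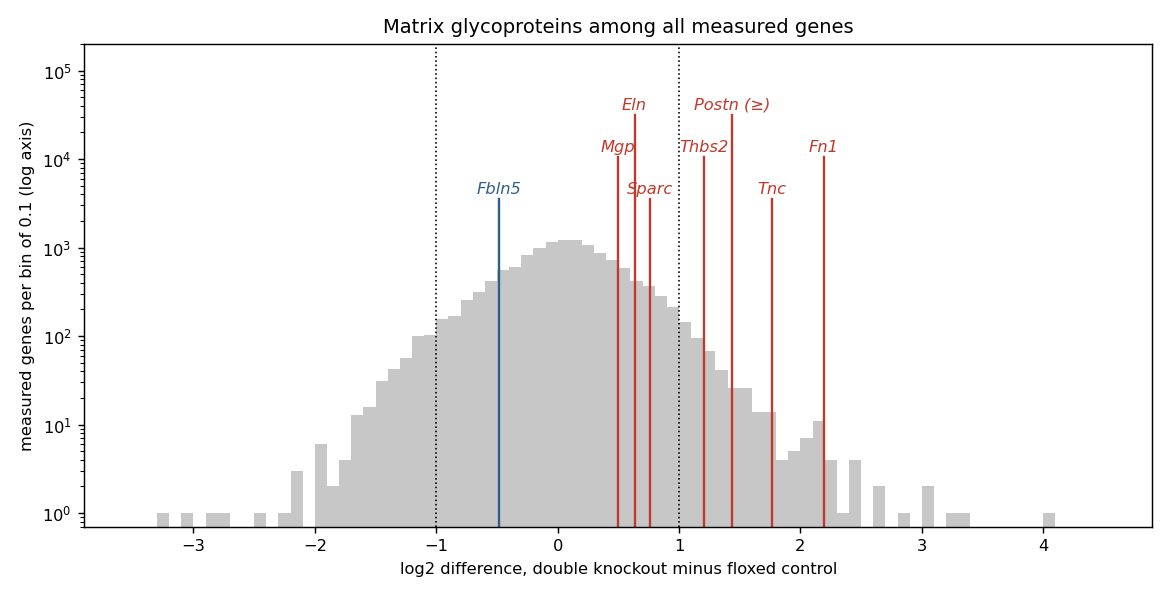
Histogram of the log2 difference (double knockout minus floxed control) of all 13290 measured genes, counts on a log axis, with 8 matrix glycoprotein genes as vertical lines and the 2-fold limits dotted. Fn1, Tnc, Postn (a lower bound) and Thbs2 lie right of the upper limit, and Fbln5 at -0.48 is left of 0.

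The elastic fibre genes did not share a direction. Eln, which encodes the soluble precursor of elastin, read 356 in double knockout glomeruli and 230 in floxed control glomeruli, 1.55-fold higher (0.63 on the log2 scale), and a second Eln set was below the floor on both arrays. It stood at percentile 85.4 among the 500 genes nearest in signal, below their 95th percentile of 1.03. Fbln5 encodes a protein that ties elastin to microfibrils and to integrins. Its bright set read 1996 in double knockout glomeruli and 2792 in floxed control glomeruli, 1.40-fold lower (-0.48 on the log2 scale), at percentile 15.2 of its nearest genes. Its second set read 6.33 in double knockout glomeruli and 78.6 in floxed control glomeruli, at least 1.49-fold lower, since the double knockout was below the floor. Both Fbln5 sets were lower in the double knockout, the second with a bound only.

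Mgp encodes a small vitamin K-dependent protein of vessel walls that keeps calcium salts from forming there. Its only set read 5793 in double knockout glomeruli and 4097 in floxed control glomeruli, 1.41-fold higher (0.50 on the log2 scale), at percentile 87.8 of its nearest genes. Of the enzymes that carboxylate such proteins or recycle vitamin K for them, Ggcx differed by 0.29, Vkorc1 by -0.42 and Vkorc1l1 by -0.07 on the log2 scale. None of the 3 was past 2-fold, and their median was -0.07.

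Markers of glomerular cells also read higher in the double knockout, and recentring all differences on them changed some of these readings. The median log2 difference was 0.57 for podocyte markers (7 of 7 above 0, none past 2-fold), led by Ptpro at 0.97, Nphs1 at 0.65, Wt1 at 0.64 and Tcf21 at 0.57, whose second set read -0.02. The brightest podocyte markers, Podxl and Synpo, differed by 0.10 and 0.47. Second sets of Podxl and Ptpro read 0.58 and 1.01. For glomerular endothelial markers the median was 0.55 (10 of 10 above 0, none past 2-fold), led by Pecam1 at 0.94, Cdh5 at 0.92, Ehd3 at 0.82 and Kdr at 0.76, with the brightest, Plat and Emcn, at 0.19 and 0.54. For mesangial and mural markers it was 0.72 (8 of 9 above 0, 2 past 2-fold). Among these the actin-binding gene Tagln was 3.23-fold and the filament gene Des 2.20-fold higher, but a second Des set read -0.03 on the log2 scale. Itga8 and Cspg4 followed at 0.86 and 0.85, and the brightest, Rgs5 and Acta2, were at 0.19 and 0.52. The lining cells of Bowman's capsule were read from parietal markers, of which 3 of 8 were past 2-fold higher. The cadherin gene Cdh6 was 5.47-fold higher (1329 in double knockout glomeruli, 243 in floxed control glomeruli; second set 2.08 on the log2 scale), the tight junction gene Cldn1 2.18-fold (second measured set 0.56 on the log2 scale) and the adhesion gene Ncam1 2.02-fold, while Krt18 differed by 0.45 and the brightest, Krt8 and Cd9, by -0.15 and 0.0016. The parietal median was 0.23 (5 of 8 above 0), or -0.32 after recentring. The median of these 34 markers, 0.55, was subtracted from every gene, which put the median of all measured genes at -0.48. Fn1 then differed by 1.64 and Tnc by 1.22, both still past 2-fold, while Postn was at 0.89 and Thbs2 at 0.66. Sparc was at 0.21, Eln at 0.08 and Mgp at -0.05, close to the glomerular markers, and Fbln5 was at -1.03, past 2-fold lower. The same shift put 1967 of the 13290 measured genes past 2-fold lower and 81 past 2-fold higher, so Fbln5 was 1 of many on the lower side.

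**Figure D3:**
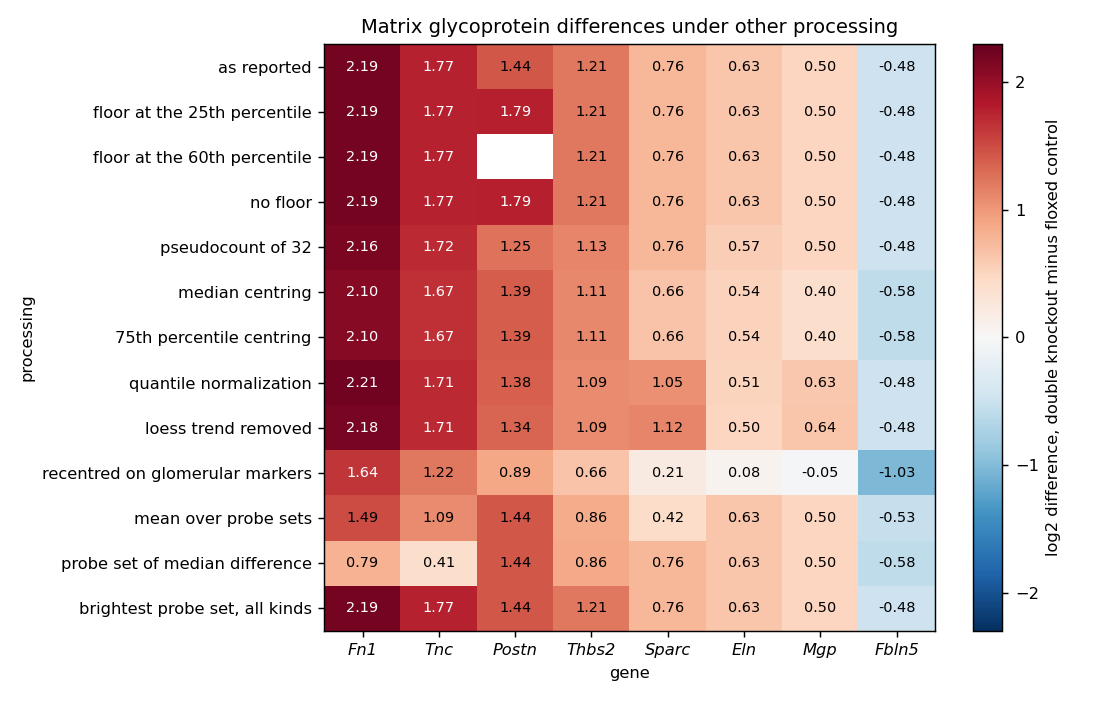
Log2 difference (double knockout minus floxed control) of 8 matrix glycoprotein genes in columns, as reported and under 12 other ways of processing in rows, with the value in each cell and colour by sign and size. An empty cell marks Postn, which is not measured with the higher floor. Fn1 runs from 0.79 to 2.21 over the 12, and Mgp is the only gene whose sign turns.

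Other cell types that make matrix or enter injured glomeruli were read from marker lists as well. Of 10 fibroblast markers, 7 were above 0 and 2 past 2-fold, with a median of 0.64 (0.09 after recentring) and a summed signal of 24036 in double knockout glomeruli and 15572 in floxed control glomeruli. The collagen I gene Col1a1 was 2.90-fold and Cd248, which encodes endosialin, 2.40-fold higher, followed by Dpt (at least 1.74-fold, the floxed control being below the floor), Gsn (1.61-fold) and the bright Col1a2 (1.58-fold). The proteoglycan genes Dcn and Lum and the receptor gene Pdgfra, named after their values were seen, differed by -0.04, -0.31 and -0.03 on the log2 scale. All 10 macrophage markers were above 0 and 3 were past 2-fold, with a median of 0.88 (0.33 after recentring) and a summed signal of 11765 in double knockout glomeruli and 6536 in floxed control glomeruli. One of the 10, Itgam, named after its value was seen, was below the floor in the floxed control. It could therefore only read above 0. Among the macrophage markers the chemokine receptor gene Ccr2 was 2.62-fold higher, and the complement genes C1qc and C1qa were 2.72-fold and 2.26-fold higher. The other measured Ccr2 sets read 0.84, 0.89 and 0.74 on the log2 scale, short of 2-fold. The last value is a bound, since its floxed control was below the floor. The brightest macrophage markers were Lyz2, with a log2 difference of 0.93, and Csf1r, with 0.59. The summed signal of the mesangial and mural markers was 36697 in double knockout glomeruli and 23353 in floxed control glomeruli. All 10 proximal tubule and all 10 distal nephron markers were below 0, with medians of -0.86 and -0.79 and 2 of each list past 2-fold lower. The proximal list was led by Slc22a8 (2.21-fold lower), Slc3a1 (2.11-fold), the bright Miox (1.93-fold) and Cubn (1.91-fold), with the brightest, Slc34a1, 1.45-fold lower. The distal list was led by Slc4a1 (2.99-fold lower), Calb1 (2.37-fold), Pvalb (1.99-fold) and Atp6v1b1 (1.96-fold), with the bright Umod and Slc12a1 1.11-fold and 1.44-fold lower. No marker with a probe set was below the floor on both arrays in any of these lists, and the part of the cell mixture in the differences of the matrix glycoproteins was not tested. The integrin gene Itga8 and the protease gene Plat stand both on a marker list and on a list of matrix genes.

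**Figure D4:**
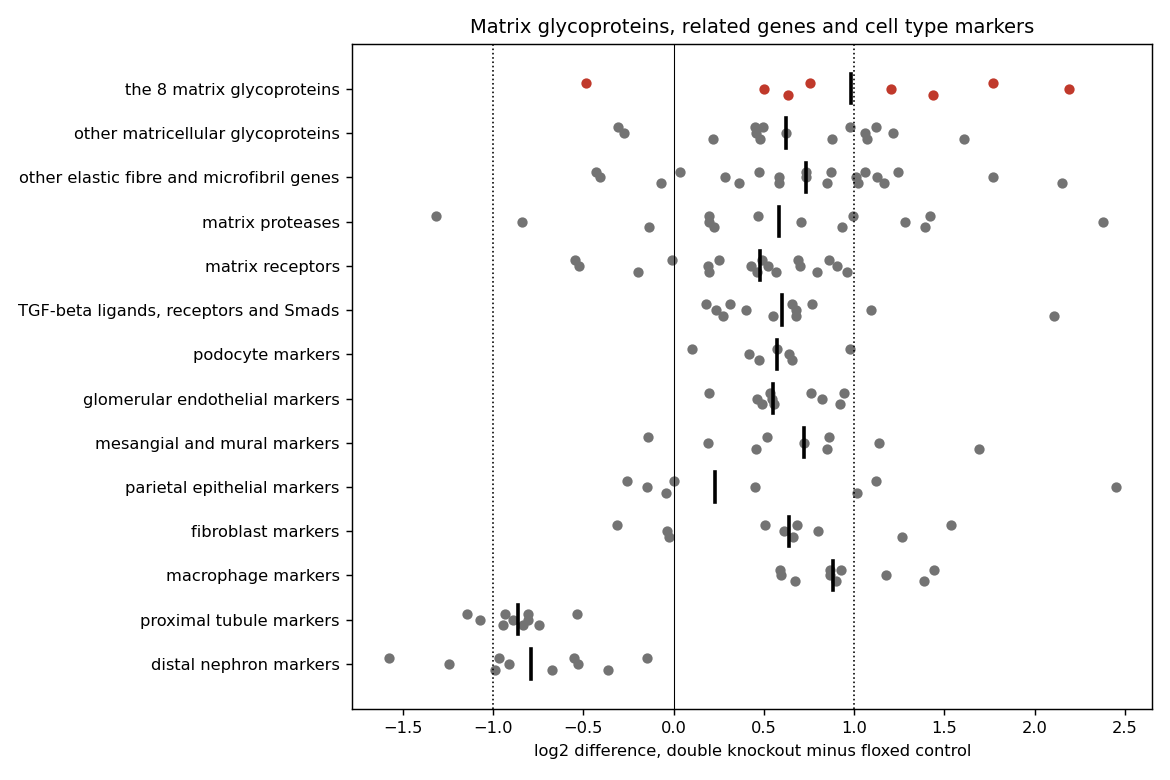
Log2 difference (double knockout minus floxed control) of each measured gene, as points, in 14 gene lists, with the list median as a bar and the 2-fold limits dotted. The matrix lists and the markers of glomerular cells, fibroblasts and macrophages have medians above 0, which for the receptors and the parietal markers turn below 0 after recentring on glomerular markers, and both tubule lists lie wholly below 0.

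Further matricellular genes read mostly higher. Of 24 listed, 23 had a probe set and 15 were measured, of which 13 were above 0 and 5 past 2-fold higher, with a median of 0.62 (0.07 after recentring). Beside this list and those below, 56.1% of all measured genes were above 0. The shares past 2-fold were 3.53% higher and 2.87% lower. Comp, a thrombospondin of cartilage, was 3.05-fold higher (240 in double knockout glomeruli, 78.5 in floxed control glomeruli). Ccn2, the connective tissue growth factor gene, was 2.32-fold higher (19669 in double knockout glomeruli, 8461 in floxed control glomeruli), and Fstl1, a secreted relative of SPARC, was 2.18-fold higher (4497 in double knockout glomeruli, 2066 in floxed control glomeruli). Thbs1, the closest relative of Thbs2, was 2.10-fold higher (1510 in double knockout glomeruli, 719 in floxed control glomeruli), with 0.77 on the log2 scale in its second set. The remaining one was Smoc2, a SPARC relative, at 2.09-fold, named after its value was seen. Of the tenascin family, also named after their values were seen, Tnxb differed by 0.46, while Tnr and Tnn were below the floor on both arrays.

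Genes that build elastic fibres and microfibrils beside elastin and fibulin-5 had a median of 0.73 (0.18 after recentring). Of 25 listed, 21 were measured, 18 were above 0 and 8 were past 2-fold higher. Among the 18, Fbn2 and Mfap5, named after their values were seen, were below the floor in the floxed control. Both could only read above 0, and the median of the list is the bound of Mfap5. Ltbp2, which encodes a microfibril protein that binds fibulin-5, was 4.44-fold higher (471 in double knockout glomeruli, 106 in floxed control glomeruli). Efemp1, which encodes fibulin-3, was 3.40-fold higher (5989 in double knockout glomeruli, 1760 in floxed control glomeruli), whereas Fbln1, another fibulin gene, read 125 in double knockout glomeruli and 167 in floxed control glomeruli (-0.41). The elastin cross-linking gene Lox was 2.36-fold higher (652 in double knockout glomeruli, 276 in floxed control glomeruli), and Emilin1, which encodes a glycoprotein of the elastin surface, was 2.25-fold higher (1478 in double knockout glomeruli, 658 in floxed control glomeruli). Within the fibulin family, whose further members Fbln1, Fbln2 and Fbln7 are named after their values were seen, the differences thus went both ways, with Fbln5 and Fbln1 lower and Efemp1, Fbln2 (2.02-fold) and Fbln7 (2.09-fold) higher. Subtracting the recentring shift of 0.55 leaves Efemp1 past 2-fold and Fbln2 and Fbln7 above 0 but under 2-fold.

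No receptor listed for these proteins was past 2-fold in either direction by the probe set that represents it. Of 18 measured, 14 were above 0, with a median of 0.48 that turned to -0.07 after recentring. The largest differences were those of Stab1 (1.94-fold), a scavenger receptor for SPARC on macrophages and sinusoidal endothelium, Itga9 (1.87-fold), an integrin chain that binds tenascin-C, Itga8 (1.82-fold), the mesangial integrin chain for fibronectin, and Itga4 (1.73-fold), a leukocyte integrin chain that binds fibronectin. Itgb1, the chain that pairs with several of these, differed by 0.52, and its other measured sets read 0.61 and 1.06, the last of them past 2-fold. The other measured Itga9 sets read 0.38 and 0.21, the latter a bound, since its floxed control was below the floor. Itgb1, Itga5 and Cd36 are named after their values were seen. Itga5, the main fibronectin receptor chain, read 123 in double knockout glomeruli and 90.9 in floxed control glomeruli (0.43), and Cd36, a receptor for thrombospondins, read 1997 in double knockout glomeruli and 2914 in floxed control glomeruli (-0.55).

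Proteases that act on matrix glycoproteins went both ways. Of 16 listed, 14 were measured, 4 were past 2-fold higher and 1 past 2-fold lower, with a median of 0.59 (0.04 after recentring). Mmp2, which encodes gelatinase A, was 5.21-fold higher (1398 in double knockout glomeruli, 268 in floxed control glomeruli), with 1.70 on the log2 scale in its second set. Mmp14, whose product activates the Mmp2 product, was 2.43-fold higher and is named after its value was seen. Bmp1, which encodes a processing enzyme of collagens and of lysyl oxidase, was 2.68-fold higher, and Mmp12, the macrophage elastase gene, was at least 2.63-fold higher, since the floxed control was below the floor. Mmp9, which encodes gelatinase B, was at least 2.49-fold lower, with the double knockout below the floor.

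Of the transforming growth factor β genes, whose ligands are known inducers of fibronectin and Ccn2 in mesangial cells, all 12 listed were measured and above 0, with a median of 0.60 (0.05 after recentring). Tgfb2 was 4.31-fold higher (1062 in double knockout glomeruli, 246 in floxed control glomeruli), and its 3 other measured sets read from 1.43 to 2.11 on the log2 scale. Tgfb3 was 2.13-fold higher, and the other 10 were under 2-fold, led by Tgfb1 at 1.70-fold, whose second set read -0.13, and the receptor gene Acvrl1 at 1.60-fold.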

How the data were processed

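Total RNA of sieved glomeruli, 250 ng per sample, was labelled with a 3' in vitro transcription kit and hybridised to 1-colour Affymetrix arrays, per the labels' protocols. For each array the authors deposited a linear intensity of every probe set. The submitters' processing notes name MAS5 and give no version. From the values, the mean after leaving out the lowest and highest 2% was 500.0 on both arrays. Detection calls were not used here. The number of arrays, 2, limits the precision.

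The deposited intensities were used unscaled. After 64 control probe sets were left out, genes were named from GEO's platform annotation and represented by the probe set of highest mean log2 signal with 1 symbol, avoiding the suffix _x_at where possible. A gene past 2-fold was one whose difference, after raising signals to the floor, reached that size. Folds against a signal below the floor are lower bounds. The text names every probe set of the matrix glycoproteins, of other lists the 4 largest differences and of cell marker lists also the brightest pair. Others are marked. The 15 lists and the matrix genes were chosen with earlier results of these data known. Alternatives changed the floor, pseudocount, scaling, probe set and size limit; the loess span was 0.3. The 2-fold rule was checked on simulated signals with large planted differences in genes measured on both arrays. The size of the simulated noise was assumed, since 1 array per genotype gives no estimate of it. The check does not cover differences near 2-fold, signals near the floor or the other steps. Python 3.11.15, pandas 2.3.3 and statsmodels 0.14.6 were used.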

Additional observations from a re-analysis of the deposited data

How the results depend on the processing

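Among the matrix glycoproteins, 4 read at least 2-fold higher as reported and none lower. The count higher was 2 and the count lower 1 after recentring on 34 glomerular markers, 1 higher by the set of median difference per gene, and 2 higher with a 3-fold limit. Recentring put the median of the measured matrix glycoproteins at 0.43 and turned Mgp to -0.050, by the construction of the shift. The probe set of median difference takes the lower of 2, which for Fn1 and Tnc is a dim set whose floxed control was below the floor, and gave 0.79 and 0.41. Thbs2 was under 2-fold after recentring (0.66), with the mean over probe sets (0.86) and by the median-difference set (0.86). Of 95 gene values under other processing, 85 kept their direction and their side of 2-fold. Many of these had no room to change. Moving the floor left the 7 genes measured on both arrays as they were. Allowing sets with the suffix _x_at left all 8 measured genes as they were. Over all measured genes, 469 were at least 2-fold higher and 382 lower. These counts were 274 higher and 304 lower (47.4% higher) when the 60th percentile served as floor, 1655 higher and 1491 lower with no floor, 81 and 1967 after recentring, 1820 and 1331 with a 1.5-fold limit and 73 and 34 with a 3-fold limit, and the share higher among them was 55.1% as reported, 38.6% after median or 75th percentile centring, 45.0% after quantile normalization, 43.7% with the loess trend removed and 3.96% after recentring. No paired analysis was possible because each genotype had 1 array, and no array could be left out. Signals near the floor limit Vtn, Postn and the dimmest sets of Fn1, Tnc, Sparc, Eln and Fbln5.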
